A study of Rattus norvegicus with 6 samples.

Results

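Liver and kidney of iron-sufficient rats were compared gene by gene to describe which genes mark each organ. The pair is 2 of the series' 6 arrays: RNA of the liver and RNA of the kidney of Wistar rats fed the purified AIN-93G diet, which contains iron, for 4 weeks. The other diet gave a check: liver and kidney of Wistar rats fed the same diet without iron for 4 weeks. The other 2 arrays, of a rat liver cell line, were not used here. Each array carried RNA pooled from 6 animals, the labels give neither age nor sex, and part of the labels calls the animals mice although the organism is rat. A probe entered when it was well above background on at least 1 of the 2 iron-sufficient arrays, which 13732 of 30367 probes were, and these gave 9830 genes. Each organ has 1 iron-sufficient array, so that difference has no replicate check, and the pooling of animals leaves no measure of the spread between them.

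Hepatocytes, the main cells of the liver, secrete most plasma proteins, store glycogen, make urea, bile acids and lipoproteins, and oxidise foreign compounds. The kidney filters blood in the glomerulus and then recovers sugars, amino acids, phosphate, salt and water through transporters that differ from one segment of the tubule to the next. Both organs make glucose, and both handle iron: the liver stores it and secretes hepcidin, the hormone that limits its entry into plasma, while proximal tubule cells recover filtered transferrin through the receptors cubilin and megalin.

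All values are log2 intensities relative to the 75th percentile of the same array, so that 0 is that percentile, and differences are liver minus kidney, positive where liver was higher. Where only 1 array of a pair was well above background the difference is a bound, written as at least N-fold, of the bright array over the dim array's own value or the lowest signal detected on that array, whichever is higher. A bound that would cross 0 was set to 0. Values given for a gene's other probes can be bounds too, mostly without being marked so, and a dimmer probe gives a smaller bound. The ± after a measured difference is a standard error taken from how far spots of the same probe differ, and it covers spot noise but not animals. The share of probes well above background was 37.7% to 47.7% on the 4 rat arrays, and no gene spot was saturated. Repeated spots of a probe disagreed over 39 of 264 blocks of the iron-sufficient liver array, against 1 to 6 blocks on the other 3, and the value without such spots is given below where it ends a call, turns a sign or differs by over 1.5 times. Scaling the arrays on probes detected on all 4 of them moved the iron-sufficient differences of genes measured on both arrays by a median of -0.31. RNA came from whole organs, so fewer cells of a type and less RNA per cell cannot be told apart.

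The organs' defining genes followed the tissue labels. Albumin (Alb), the main plasma protein, was at 7.74 and 8.41 in the iron-sufficient and iron-free liver and at -4.10 and -4.44 in the matching kidneys, where it was not well above background (at least 1019-fold higher in liver). Fibrinogen beta chain (Fgb), a clotting protein, was at 8.97 and 8.97 in liver and -1.86 and -2.82 in kidney, at least 1829-fold higher by the probe used and 2.28 higher on the log2 scale by its other probe. Uromodulin (Umod), the urinary protein of the thick ascending limb, was at 8.64 and 8.36 in kidney and -5.0 and -5.55 in liver, at least 3587-fold higher in kidney. For each of these genes the 2 arrays of the organ named stood far above the 2 arrays of the other organ. The kidney androgen-regulated protein (Kap), a proximal tubule protein, was at 8.94 and 8.96 in kidney and -3.64 and -3.25 in liver, at least 4419-fold higher in kidney. The sodium-phosphate cotransporter Slc34a1, of the same segment, was at 6.99 and 6.70 against -5.19 and -5.63, at least 1140-fold higher in kidney.

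Of the 9830 genes, 1890 (19.2%) were at least 2-fold higher in liver and 2006 (20.4%) at least 2-fold higher in kidney. The list counts below are to be read beside these shares, which the smaller count of many lists does not exceed. At least 8-fold differences, taken here as marking an organ, were found for 486 genes in liver (4.94%) and 542 in kidney (5.51%), and 302 and 405 of them were bounds. The balance of 2-fold calls depended on the scaling: with the arrays scaled on commonly detected probes it was 1388 to 2492, so that liver held 35.8% of calls in place of 48.5%. The median difference over all 9830 genes was 0.06.

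**Figure D1:**
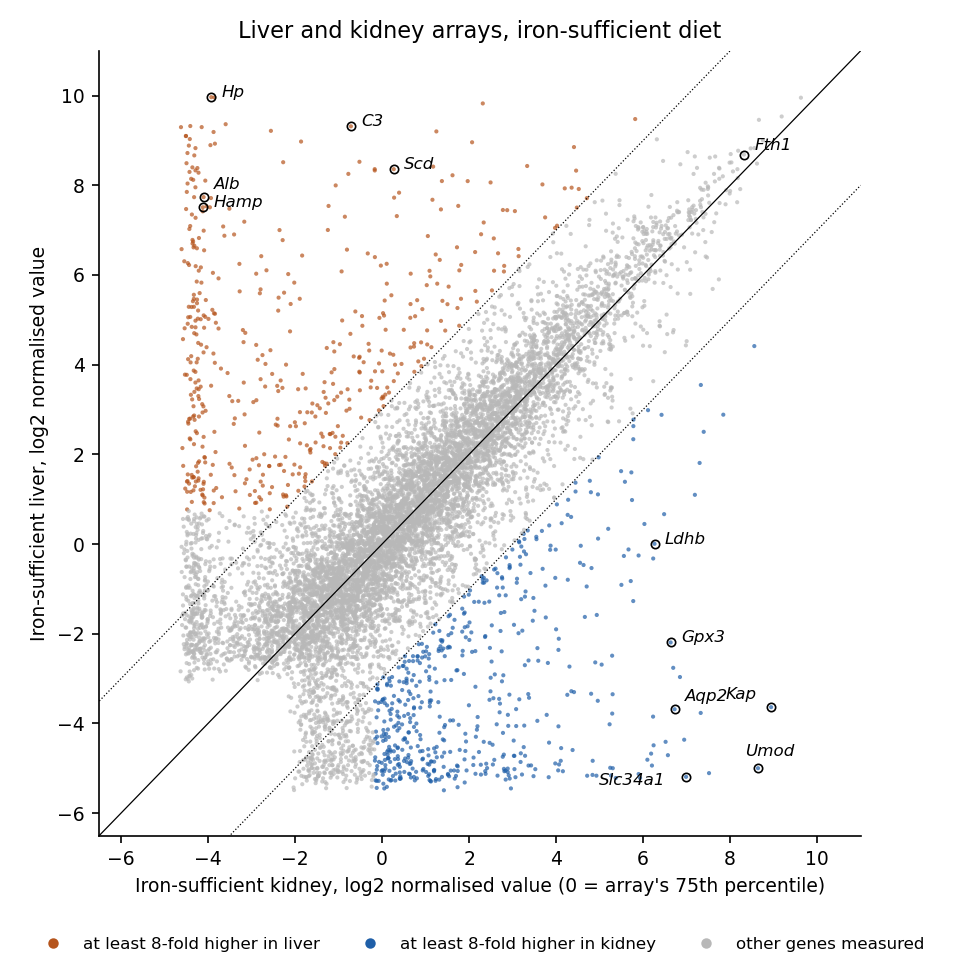
Each point is a gene measured on the iron-sufficient pair, with its log2 normalised value in kidney on the horizontal axis and in liver on the vertical axis (0 is the array's 75th percentile), and dotted lines mark 8-fold. Genes of 1 organ form the vertical band at the left edge (liver, with Alb at -4.10 in kidney) and the horizontal band at the bottom (kidney, with Umod at -5.0 in liver), where values are near background and the difference is a bound, while Fth1 lies near the line of equal values.

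The 250 bases before the start site of these 5 genes are printed so that liver and kidney genes with large organ differences can be read side by side. Capitals mark TATAAA or its reverse complement TTTATA, the letters of the TATA box, a core promoter element known from many strongly transcribed genes. The sequences are RefSeq's, build GRCr8, 5′ to 3′ on the strand of the gene: Alb chr14:17906980-17907229 (minus strand), Fgb chr2:170700876-170701125 (minus), Slc34a1 chr17:9238984-9239233 (minus), Kap chr4:168409033-168409282 (minus) and Umod chr1:183261017-183261266 (minus).
Alb: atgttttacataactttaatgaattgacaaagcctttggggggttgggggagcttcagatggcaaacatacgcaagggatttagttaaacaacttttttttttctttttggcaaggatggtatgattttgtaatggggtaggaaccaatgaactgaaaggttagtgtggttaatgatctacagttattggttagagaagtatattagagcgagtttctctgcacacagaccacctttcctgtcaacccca
Fgb: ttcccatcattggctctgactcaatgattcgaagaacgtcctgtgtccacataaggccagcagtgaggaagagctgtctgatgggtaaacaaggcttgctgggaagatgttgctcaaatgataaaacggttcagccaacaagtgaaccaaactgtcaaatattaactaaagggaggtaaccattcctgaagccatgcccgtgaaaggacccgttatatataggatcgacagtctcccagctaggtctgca
Slc34a1: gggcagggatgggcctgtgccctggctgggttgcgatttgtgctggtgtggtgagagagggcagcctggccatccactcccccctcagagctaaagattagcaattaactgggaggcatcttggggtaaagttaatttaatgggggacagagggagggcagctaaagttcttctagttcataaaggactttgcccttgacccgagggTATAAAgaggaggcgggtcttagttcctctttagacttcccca
Kap: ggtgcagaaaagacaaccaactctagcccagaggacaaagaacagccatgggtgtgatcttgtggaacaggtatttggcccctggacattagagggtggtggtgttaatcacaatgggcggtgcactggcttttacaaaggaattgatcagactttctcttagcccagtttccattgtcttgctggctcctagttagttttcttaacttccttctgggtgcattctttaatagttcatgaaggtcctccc
Umod: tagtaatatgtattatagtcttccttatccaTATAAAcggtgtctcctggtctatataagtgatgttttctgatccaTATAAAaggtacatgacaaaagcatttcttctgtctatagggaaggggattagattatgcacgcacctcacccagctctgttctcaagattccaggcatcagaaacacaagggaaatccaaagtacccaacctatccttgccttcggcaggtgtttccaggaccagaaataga
The first base of the match stood at -43 from the start site in Slc34a1 and at -219 and -173 in Umod, and the letters are not in the windows of Alb, Fgb and Kap. Of 27457 promoters of the same 250 bases, 1 per gene, 13.1% hold these letters on either strand. The 5 genes were chosen after their sequences were seen. A comparison of organ classes is void, because 373 of the 486 liver genes (76.7%) and 418 of the 542 kidney genes (77.1%) were matched to a promoter, under the 80% set for such a check. Only these exact letters were searched for, so other runs of T and A, as in the Fgb window, are not marked. A match is a description of these letters and not a bound site.

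Plasma proteins made by hepatocytes stood almost wholly on the liver side. Of 41 measured members, 40 were at least 2-fold higher in liver, 39 at least 8-fold, and none was higher in kidney, with a median of 9.03 against 0.06 over all genes. Haptoglobin (Hp), which binds free hemoglobin, was at 9.96 and 9.82 on the liver arrays and -3.93 and -4.42 on the kidney arrays, at least 4778-fold higher in liver. Transthyretin (Ttr), a carrier of thyroid hormone and retinol-binding protein, was at 9.36 and 9.17 on the liver arrays and -3.60 and -4.61 on the kidney arrays, at least 3145-fold higher. Both kidney values of each were below the detection rule, and both liver values were within 0.5 of each other. Complement component C3 was measured on all 4 arrays, at 9.31 and 8.90 on the liver arrays and -0.72 and -0.41 on the kidney arrays, a difference of 10.03 ± 0.45 (9.40 without noisy blocks). The clotting genes Fga (9.06 ± 0.45) and Plg (9.03 ± 0.21) and the complement factors Cfb (9.04 ± 0.33) and Cfi (8.77 ± 0.21) were also measured in kidney and were 437-fold to 535-fold higher in liver.

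Several plasma proteins had a kidney signal well above background. The complement protein C5 was at 6.18 and 6.44 on the liver arrays and 3.35 and 3.32 on the kidney arrays, a difference of 2.83 ± 0.15 and 7.12-fold higher in liver. Antithrombin (Serpinc1), an inhibitor of clotting enzymes, differed by 3.87 ± 0.29, angiotensinogen (Agt), the precursor of the angiotensin peptides, by 6.11 ± 0.31, and prothrombin (F2) by 6.13 ± 0.29. In each of these the liver arrays were higher in both pairs. The exception among the 41 was fetuin A (Ahsg), an inhibitor of calcification, whose brightest probe was at 3.32 and 3.09 on the liver arrays and 2.74 and 2.85 on the kidney arrays, a difference of 0.58 ± 0.46, while its other probe gave a bound of 11.30. Such a disagreement, with the probe used within 2-fold and another at least 8-fold, was found for 12 of 1302 genes with several measured probes.

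Apolipoproteins and small carriers were among the brightest liver genes. Apoc3, which slows the clearance of triglyceride-rich lipoproteins, was at 9.82 and 9.63 on the liver arrays and 2.31 and 2.87 on the kidney arrays, and Apoc2, the activator of lipoprotein lipase, at 9.20 and 8.57 on the liver arrays and 1.25 and 1.71 on the kidney arrays. Their differences were 7.51 ± 0.29 and 7.95 ± 0.31. Apoc1 (at least 3006-fold), Apoa2 (at least 2260-fold) and the alpha-1-microglobulin precursor Ambp (at least 2838-fold) were detected in liver alone, as were the protease inhibitor Serpina1 (at least 2500-fold) and the serum amyloid Saa4 (at least 2328-fold). The urinary lipocalins Obp3 (at least 4756-fold), Mup4l4 (at least 3003-fold), Mup4l1 (at least 2276-fold, a bound of 11.15 that was 12.19 without noisy blocks) and Rup2 (at least 2623-fold) belong to a family of near-identical copies, and so do the ribonucleases Ang (370-fold) and Ang2 (362-fold). Their probes may read each other's RNA, so these values belong to the families and not with certainty to 1 gene.

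The kidney genes were read by segment of the nephron. Of 9 measured glomerular genes 6 were at least 2-fold higher in kidney, 3 were not called, and the median was -2.18. Podocalyxin (Podxl), a surface protein of podocytes and endothelium, was at -1.54 and -0.90 on the liver arrays and 2.73 and 2.74 on the kidney arrays, a difference of -4.27 ± 0.22. Nephrin (Nphs1), of the slit diaphragm of podocytes, was at least 5.24-fold higher. The podocyte transcription factor Wt1 was at -1.08 and -1.86 in kidney and -1.49 and -3.15 in liver and was not called.

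Of 24 measured proximal tubule genes 23 were at least 2-fold higher in kidney and 20 at least 8-fold, with a median of -6.13. Slc3a1, the heavy chain of the cystine transporter, was at -5.11 and -3.45 on the liver arrays and 7.51 and 7.48 on the kidney arrays, at least 1644-fold higher in kidney, and its light chain Slc7a9 was at least 191-fold higher. Slc7a13, a light chain of the late proximal tubule, was at least 1440-fold higher, and the glucose cotransporter Slc5a2, which recovers most filtered glucose, was at least 548-fold higher. For all 4 the kidney values of the iron-sufficient and iron-free arrays lay within 0.5 of each other. The brush border enzymes Ggt1, which splits glutathione, and Mme, neprilysin, were at least 372-fold and at least 66.7-fold higher. The brush border receptor megalin (Lrp2) was at -0.91 and -0.71 on the liver arrays and 5.50 and 5.86 on the kidney arrays, a difference of -6.41 ± 0.39. The member not called was the dipeptidase Dpep1, at 0.55 and 0.88 on the liver arrays and 1.06 and 2.76 on the kidney arrays, which differed by -0.51 ± 0.31.

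Genes of the loop of Henle and distal tubule had a median of -5.72, with 13 of 15 at least 2-fold higher in kidney. The sodium-potassium-chloride cotransporter Slc12a1, the target of loop diuretics, was at -5.0 and -3.43 on the liver arrays and 5.30 and 5.39 on the kidney arrays, at least 355-fold higher in kidney. The potassium channel Kcnj1 was at least 273-fold higher, the phosphatase inhibitor Ppp1r1a at least 823-fold and the thiazide-sensitive cotransporter Slc12a3 at least 52.5-fold. On the log2 scale other probes gave -3.82 to -3.40 for Kcnj1 and -3.8 for Slc12a3. The 2 members not called were the magnesium channel Trpm6 (-0.58 ± 0.35) and the prostaglandin receptor Ptger3 (-0.74 ± 1.03). All 20 measured collecting duct genes were at least 2-fold higher in kidney, with a median of -4.43. The vasopressin-regulated water channel Aqp2 was at -3.69 and -3.23 on the liver arrays and 6.72 and 7.25 on the kidney arrays, at least 950-fold higher, and the basolateral channel Aqp3 at least 142-fold. The FXYD protein Fxyd4, a modulator of the sodium pump, was at least 151-fold higher, Hsd11b2, which inactivates glucocorticoids in principal cells, at least 91.5-fold, and the intercalated cell factor Foxi1 at least 39.8-fold. The anion exchanger Slc4a1, which red cell precursors also make, was at -0.47 and 1.17 on the liver arrays and 1.66 and 1.92 on the kidney arrays, a difference of -2.13 ± 0.32 that was -3.54 without noisy blocks and -0.75 on the iron-free pair.

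**Figure D2:**
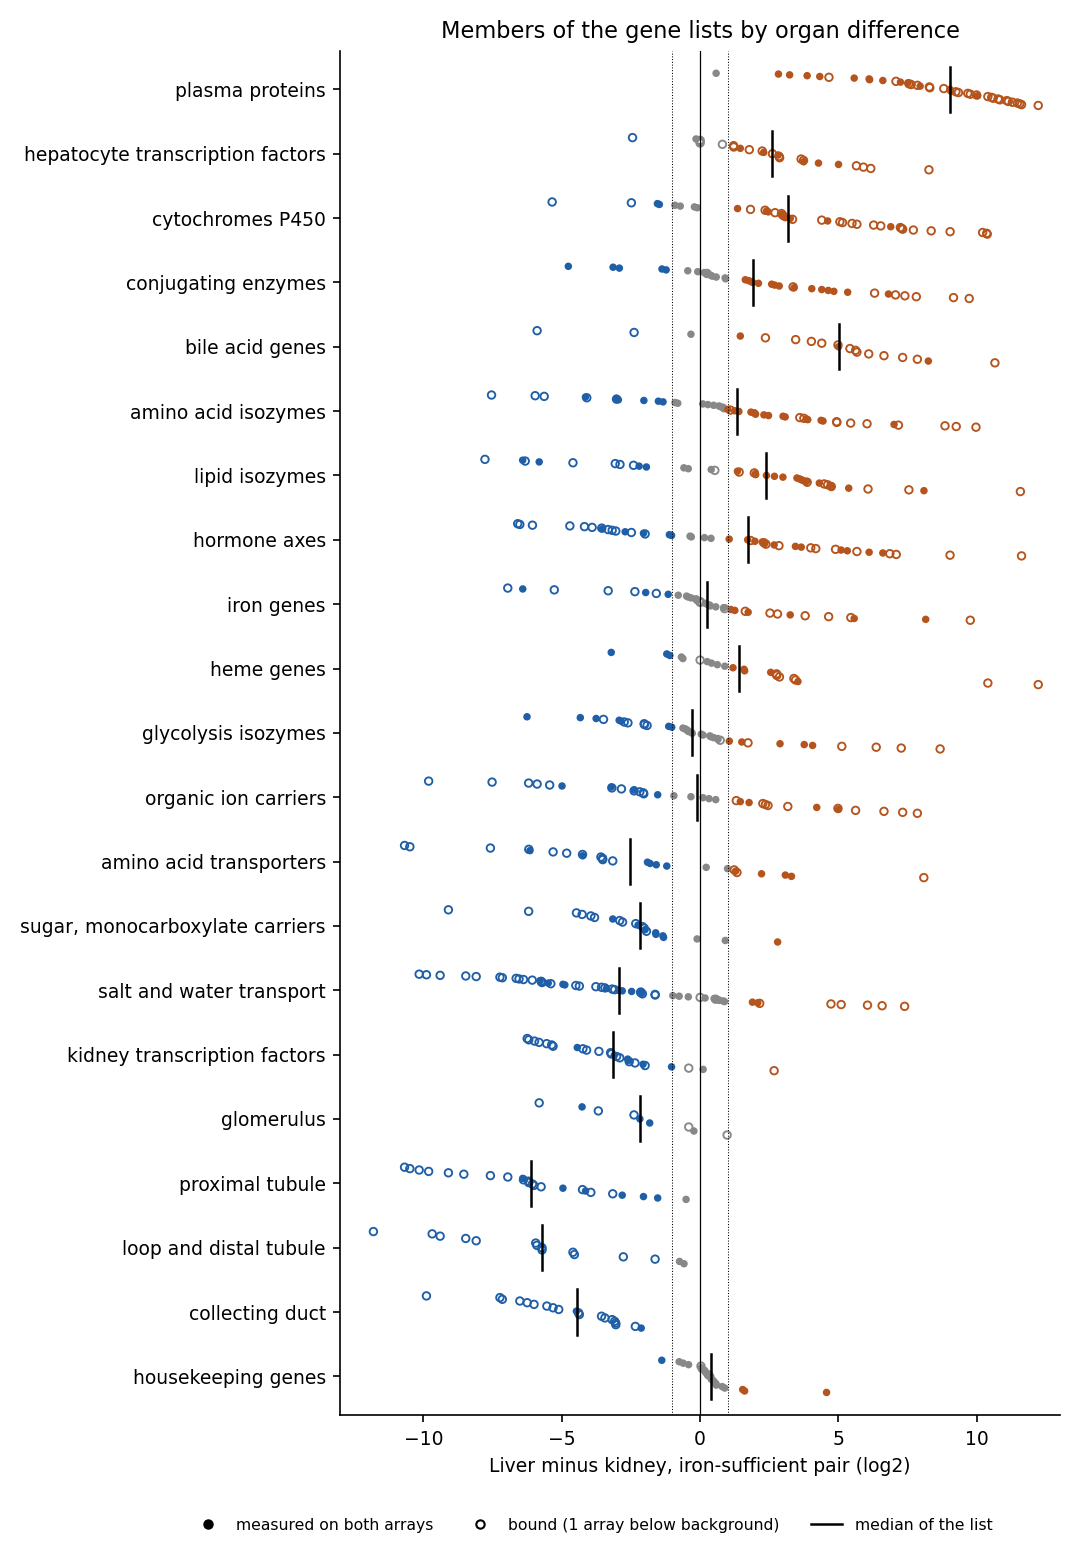
Each point is a gene of a list, with its liver minus kidney difference on the iron-sufficient pair on the horizontal axis (log2) and the list on the vertical axis. Filled points were measured on both arrays, open points are bounds, and the bar is the list's median. Plasma proteins (median 9.03) and bile acid genes (5.00) lie on the liver side, the proximal tubule (-6.13), loop (-5.72) and collecting duct (-4.43) lists on the kidney side, and iron (0.25), glycolysis (-0.30) and organic ion (-0.11) genes spread to both.

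Transporters were divided by substrate. Of 26 amino acid transporters 17 were at least 2-fold higher in kidney and 7 in liver, with a median of -2.53. Besides the cystine carriers, the creatine transporter Slc6a8 was at -0.26 and 0.12 on the liver arrays and 5.89 and 5.66 on the kidney arrays, a difference of -6.15 ± 0.16, and the neutral amino acid carrier Slc6a18 was at least 73.1-fold higher in kidney by the probe used and 1.42 log2 units higher by its other probe. On the liver side stood the system A carrier Slc38a4, at 5.83 and 5.39 on the liver arrays and -4.15 and -4.52 on the kidney arrays and at least 272-fold higher. The glutamine carrier Slc38a3 (3.08 ± 0.20) and the mitochondrial carriers Slc25a22, for glutamate, and Slc25a13, for aspartate and glutamate of the urea cycle, (3.30 ± 0.33 and 2.22 ± 0.41) were also higher in liver.

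Sugar and monocarboxylate carriers were mostly kidney genes, with 19 of 22 at least 2-fold higher there and a median of -2.16. The single member higher in liver was Slc2a2, the low-affinity glucose carrier of hepatocytes and proximal tubule, at 4.80 and 4.00 on the liver arrays and 1.99 and 2.23 on the kidney arrays, a difference of 2.80 ± 0.29. The inositol carrier Slc5a3 was at least 22.2-fold higher in kidney, the sodium-glucose family member Slc5a9 at least 19.2-fold, and the glucose carrier Slc2a1 differed by -2.24 ± 0.14. Slc5a9 had no value outside noisy blocks. The broad lactate carrier Slc16a1 differed by -0.11 ± 0.30 and was not called.

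Organic ion carriers split almost evenly, 14 of 34 higher in liver and 15 in kidney. The liver members included carriers of the sinusoidal and canalicular membranes of hepatocytes. The bile acid importer Slc10a1 was at 5.60 and 5.28 on the liver arrays and -4.19 and -4.52 on the kidney arrays, at least 231-fold higher, and the organic anion importers Slco1a4 and Slco1b2 were at least 160-fold and at least 100-fold higher. The canalicular exporters Abcc2, for conjugates, and Abcb11, for bile salts, were at least 49.2-fold and at least 31.6-fold higher. The kidney members included carriers that secrete organic anions and cations into urine: Slc22a6 was at -2.97 and -2.52 on the liver arrays and 6.85 and 6.73 on the kidney arrays (at least 899-fold higher), Slc22a2 was at least 183-fold higher and the exporter Slc47a1 at least 43.4-fold. The urate exchanger Slc22a12 was at least 73.4-fold higher in kidney, and Slc51b, a subunit of the basolateral organic solute exporter, at least 59.4-fold.

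Of 55 genes of salt and water transport, 36 were at least 2-fold higher in kidney and 8 in liver, with a median of -2.95. Over all genes 19.2% were higher in liver and 20.4% in kidney, so the liver count does not exceed its share. The isoforms of aquaporin and carbonic anhydrase divided between the organs. The glycerol channel Aqp9 was at least 168-fold higher in liver and Aqp8 at least 26.5-fold, whereas Aqp2, Aqp3 and the proximal tubule channel Aqp7 (at least 67.1-fold) were higher in kidney. The cytosolic carbonic anhydrase Car3 and the mitochondrial Car5a were at least 95.6-fold and at least 34.3-fold higher in liver, and the membrane-anchored Car4 and Car15 were at least 93.5-fold and at least 100-fold higher in kidney. Fxyd1 was at least 66.2-fold higher in liver, in contrast to Fxyd4 of the collecting duct.

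The isozymes of glucose metabolism showed the same division within single reactions. Hexokinase 1 (Hk1), the high-affinity enzyme, was at -1.75 and -0.75 on the liver arrays and 2.01 and 2.18 on the kidney arrays, a difference of -3.76 ± 0.47. Both livers lay below both kidneys. For glycogen synthase the liver form Gys2 was at least 154-fold higher in liver and the muscle form Gys1 differed by -2.86 ± 0.40. For glycogen phosphorylase the liver form Pygl differed by 3.76 ± 0.43 and the brain form Pygb was at least 6.1-fold higher in kidney.

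At the end of glycolysis, pyruvate kinase Pklr was at 4.25 and 2.83 on the liver arrays and 0.18 and 0.92 on the kidney arrays, a difference of 4.07 ± 0.31, and Pkm was at least 11.2-fold higher in kidney, with no value outside noisy blocks. Lactate dehydrogenase A (Ldha) was at 8.26 and 8.41 on the liver arrays and 5.37 and 6.62 on the kidney arrays, a difference of 2.89 ± 0.29, and Ldhb at 0.01 and 0.17 on the liver arrays and 6.26 and 6.14 on the kidney arrays, a difference of -6.26 ± 0.32 (76.5-fold higher in kidney). Aldolase A (Aldoa) was higher in kidney at -2.93 ± 0.33. Phosphofructokinase of liver type (Pfkl) was not called at -0.28 ± 0.35, and the muscle type Pfkm was higher in kidney at -4.33 ± 0.57. The bifunctional enzyme Pfkfb1 was at least 82.5-fold higher in liver by the probe used and 2.41 log2 units higher by its other probe. The platelet type Pfkp was a bound of 1.73 towards liver, -1.30 without the spots of noisy blocks, and -2.28 on the iron-free pair, so its direction was not settled.

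**Figure D3:**
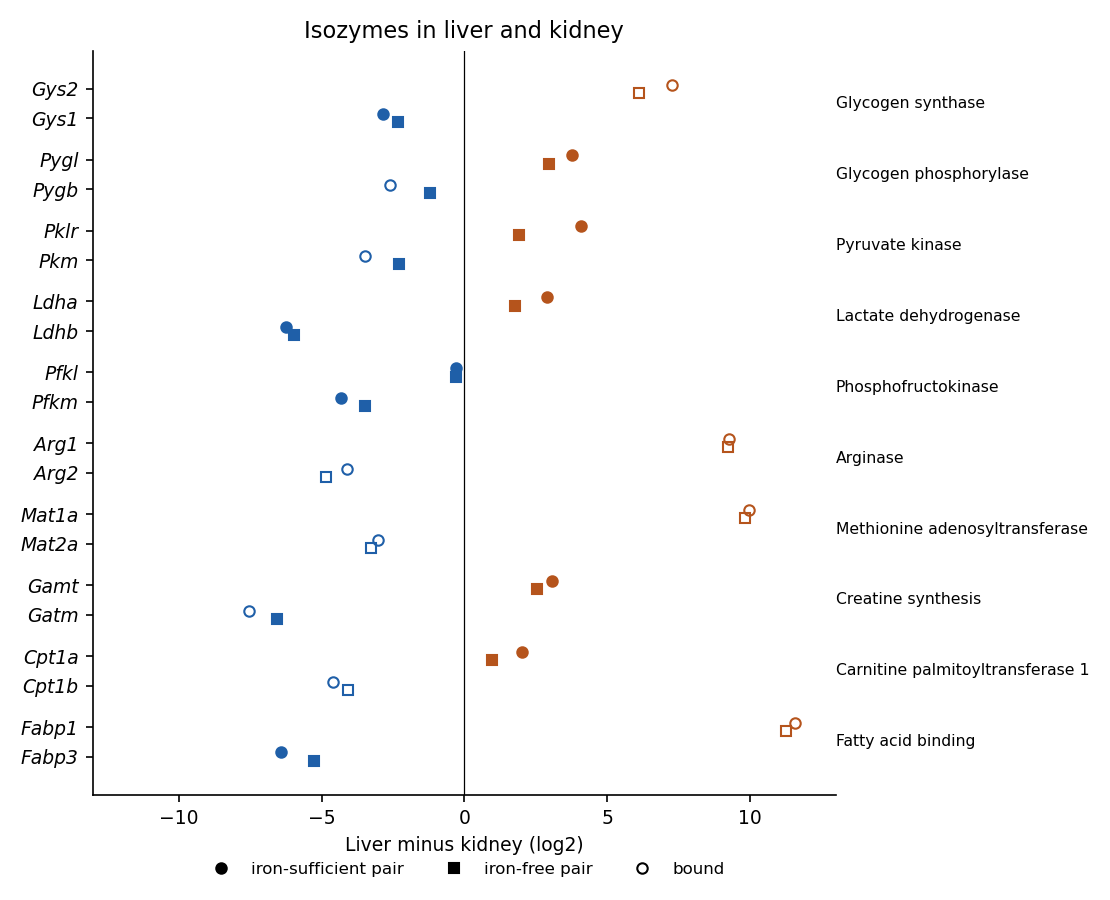
Liver minus kidney differences (log2, horizontal axis) of isozymes and partner enzymes, grouped by reaction, for the iron-sufficient pair (circles) and the iron-free pair (squares), with open symbols for bounds. In each group but phosphofructokinase, 1 member lies clearly on the liver side and the other on the kidney side in both pairs, as with Ldha (2.89) and Ldhb (-6.26), while Pfkl lies near 0. The groups were chosen with these values known.

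Of the genes of glucose production, which both organs share, most were within 2-fold. Phosphoenolpyruvate carboxykinase Pck1 differed by 0.39 ± 0.29, fructose bisphosphatase Fbp1 by 0.35 ± 0.29, glucose-6-phosphatase G6pc1 by 0.49 ± 0.29 and its transporter Slc37a4 by -0.31 ± 0.28 (0.56 without noisy blocks), and none was called in either pair. Ketohexokinase (Khk), which phosphorylates fructose, differed by 0.63 ± 0.29. Pyruvate carboxylase (Pc) was called, at 1.06 ± 0.29 on the iron-sufficient pair and 0.48 on the iron-free pair, and was no longer 2-fold under the 3 other scalings. Among the steps of glycolysis, Eno1 (-1.02 ± 0.29) and Tpi1 (-1.13 ± 0.28, and -0.24 by its other probe) were higher in kidney, Gpd1 (1.51 ± 0.34) was higher in liver, and Gapdh, Pgk1, Pgam1 and Gpi were not called on the iron-sufficient pair. On the iron-free pair Eno1 (-0.91), Tpi1 (-0.52) and Gpd1 (0.58) were within 2-fold. Gpd1 was also under 2-fold on the iron-sufficient pair with quantile normalisation. The minor isoforms Pgam2 (at least 4.04-fold), Eno3 (at least 4.06-fold), Fbp2 (at least 6.69-fold) and G6pc3 (at least 3.78-fold) were higher in kidney, Eno3 by less than 2-fold without noisy blocks (-0.99). Gpd2, Hk3, Ldhd and Pck2 were not called. In all, 10 of 38 measured glycolysis isozymes were higher in liver, 13 higher in kidney and 15 not called.

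Amino acid enzymes leaned to the liver, with 27 of 48 at least 2-fold higher there, 11 higher in kidney and a median of 1.33. The kidney count is near the 20.4% over all genes. The urea cycle genes Arg1, arginase, and Otc, ornithine transcarbamylase, were at least 612-fold and at least 144-fold higher in liver, with Arg1 at 7.0 and 6.79 on the liver arrays and -2.36 and -2.65 on the kidney arrays. The mitochondrial arginase Arg2 was at least 17.1-fold higher in kidney. Methionine adenosyltransferase showed the same opposition, Mat1a at least 1004-fold higher in liver and Mat2a at least 8.12-fold higher in kidney. The liver glutaminase Gls2 was at 6.08 and 5.20 on the liver arrays and -0.93 and -0.63 on the kidney arrays, a difference of 7.01 ± 0.45. Creatine synthesis divided by step: Gatm, the first enzyme, was at least 186-fold higher in kidney and Gamt, the second, differed by 3.08 ± 0.34. Tdo2, which opens the tryptophan ring, was at least 462-fold higher in liver. On the kidney side stood the branched-chain aminotransferase Bcat2 (-4.14 ± 0.47), the mitochondrial creatine kinase Ckmt1 (at least 49.8-fold) and the serine synthesis enzyme Phgdh, which was at -0.27 and 2.36 on the liver arrays and 5.56 and 5.16 on the kidney arrays, a difference of -5.82 ± 0.32 on the iron-sufficient pair and -2.80 on the iron-free pair.

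Of 39 lipid enzymes and carriers 25 were at least 2-fold higher in liver and 10 in kidney, with a median of 2.40. Stearoyl-CoA desaturase (Scd), which makes oleate, was at 8.36 and 5.76 on the liver arrays and 0.27 and 0.49 on the kidney arrays, a difference of 8.09 ± 0.33 on the iron-sufficient pair and 5.27 on the iron-free pair. Fatty acid binding proteins divided, Fabp1 at least 3056-fold and Fabp7 at least 187-fold higher in liver and Fabp3, the heart form, at -6.41 ± 0.59. Oxct1, which begins the use of ketone bodies, was at -2.49 and -1.87 on the liver arrays and 5.29 and 5.47 on the kidney arrays, at least 219-fold higher in kidney. Hepatic lipase (Lipc) was at least 67.2-fold higher in liver and fatty acid synthase (Fasn) differed by 4.75 ± 0.31. The acyl-CoA enzymes Acsm2 (-5.82 ± 0.15) and Acot1 (at least 80-fold) were higher in kidney.

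Of 33 genes listed with respiratory chain subunits, adenine nucleotide carriers and adenylate kinases, 4 were higher in liver, 10 in kidney and 19 not called. Their median was -0.31, and the calls together are near the share over all genes. On the iron-free pair 2 of 35 were higher in liver and 13 in kidney. The kidney members included the adenine nucleotide carrier Slc25a4 (-3.50 ± 0.36), adenylate kinase Ak1 (-2.90 ± 0.32), the isocitrate dehydrogenase subunit Idh3g (-2.22 ± 0.28) and the coactivator Ppargc1a (at least 6.12-fold). On the liver side were the pyruvate dehydrogenase kinase Pdk1 (at least 6.3-fold) and Idh1 (1.30 ± 0.32). The cytochrome oxidase subunits Cox6b2 (1.33 ± 0.39) and Cox7a2 (1.03 ± 0.41) were also higher in liver. Idh1 and Cox6b2 were under 2-fold with quantile normalisation and with another background correction. Cox7a2 had no value outside noisy blocks, was at 0.19 by its other probe and turned to -0.12 with that background correction. Acss1, which activates acetate in mitochondria and was in none of the lists, was at -1.63 and -1.89 on the liver arrays and 4.66 and 5.19 on the kidney arrays, a difference of -6.29 ± 0.47.

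Enzymes acting on foreign compounds were mostly liver genes. Of 40 cytochromes P450, 32 were at least 2-fold higher in liver, 23 at least 8-fold, and 4 were higher in kidney, with a median of 3.17. Cyp2b3 was at 8.12 and 8.24 on the liver arrays and -4.34 and -4.61 on the kidney arrays (at least 1330-fold higher), and Cyp2c13 (at least 1315-fold), Cyp2c7 (at least 1186-fold) and Cyp3a2 (at least 525-fold, a bound of 9.04 that was 9.89 without noisy blocks) were detected in liver alone. Cyp2c11, a major form of male rat liver, was measured in both organs and differed by 6.89 ± 0.29. Members of these subfamilies are close in sequence and their probes may not tell them apart. On the kidney side were Cyp2c24 (at least 40.7-fold, with -2.78 on the log2 scale by its other probe) and Cyp4a8 (-1.54 ± 0.30, with -6.39 by its other probe). Cyp2s1 (-1.47 ± 0.49, with -1.51 to 0.00 by its other probes) and Cyp27b1 (at least 5.6-fold), the enzyme that makes the active form of vitamin D, were also higher in kidney. The arachidonate enzyme Cyp2c23 was not called, at 7.28 and 6.49 on the liver arrays and 7.39 and 7.45 on the kidney arrays.

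Of 37 conjugating enzymes 22 were higher in liver and 5 in kidney, with a median of 1.90. The sulfotransferases Sult1e1, for estrogen, Sult2a6 and Sult2a1, for steroids and bile acids, were at least 847-fold, at least 225-fold and at least 169-fold higher in liver, and the glucuronosyltransferase Ugt2b15 was at least 572-fold higher. On the kidney side, Nat8, which makes mercapturic acids, was at 0.98 and 3.06 on the liver arrays and 5.74 and 5.41 on the kidney arrays, a difference of -4.76 ± 0.28, Sult1c2 differed by -3.15 ± 0.30 and the glutathione transferase Gstp1 by -2.92 ± 0.33 (-0.99 on the iron-free pair). Glycine N-acyltransferase Glyat differed by -1.38 ± 0.28, with no spots left outside noisy blocks. Among alcohol and aldehyde dehydrogenases 11 of 16 were higher in liver and 2 in kidney. Aldh1b1 (4.73 ± 0.43) and Aldh3a2 (4.37 ± 0.29) were measured in both organs, and Aldh1l2 (at least 13.2-fold) and Adh7 (at least 11.1-fold) were detected in liver alone. Aldh1a1, which makes retinoic acid, was higher in kidney, at 4.42 and 1.72 on the liver arrays and 6.00 and 5.80 on the kidney arrays, as was Aldh6a1 (-1.10 ± 0.31).

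Bile acid genes gave 16 of 19 members higher in liver, 2 in kidney and a median of 5.00. Slc27a5, which activates bile acids, was at 8.40 and 7.91 on the liver arrays and -4.36 and -4.62 on the kidney arrays, at least 1613-fold higher, and Baat, which joins them to glycine or taurine, differed by 8.25 ± 0.45. The synthesis enzymes Cyp27a1 and Cyp8b1 were at least 50.9-fold and at least 21.1-fold higher. Amacr, a racemase of the same pathway, was a bound of at least 42.7-fold, which became 2.08 on the log2 scale without noisy blocks. The 2 kidney members, Slc51a (at least 5.23-fold) and Slc51b, are the 2 subunits of 1 exporter.

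Transcription factors followed the organs as well. Of 25 factors known in hepatocytes, 19 were higher in liver and 1 in kidney, with a median of 2.62. Creb3l3, a membrane-bound factor of the fasting liver, was at 6.43 and 5.88 on the liver arrays and -1.84 and -4.29 on the kidney arrays, at least 309-fold higher, followed by Onecut2 (at least 72-fold), Hhex (at least 59.9-fold, a bound of 5.90 that was 6.73 without noisy blocks) and Onecut1 (at least 50.2-fold). Onecut2 had no value outside noisy blocks on the iron-sufficient pair. Hnf4a was not called, at -1.16 and -2.30 on the liver arrays and -1.01 and -1.14 on the kidney arrays. Of 26 factors known in kidney, 23 were higher there and 1 in liver, with a median of -3.16. Tfcp2l1 (at least 76.2-fold) of the collecting duct, Hoxd9 (at least 73.1-fold), Hoxb7 (at least 63.3-fold) and Emx2 (at least 56.6-fold) led, and Pax8 was at least 46.8-fold higher. Tfcp2l1 had no value outside noisy blocks on the iron-sufficient pair and was 87.7-fold higher in kidney on the iron-free pair. Sall1 was not called (0.11 ± 0.52).

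Of 37 measured iron genes, 13 were higher in liver, 8 in kidney and 16 not called. Over all genes 19.2% were higher in liver and 20.4% in kidney, so the kidney count is near that share. The median of 0.25 was 0.00 or -0.01 under 2 other scalings. Hepcidin (Hamp) was at 7.51 in the iron-sufficient liver, -2.24 in the iron-free liver and -4.12 and -4.51 in the kidneys. It was bright on 1 array alone, at least 871-fold higher in liver on the iron-sufficient pair and at least 1.15-fold on the iron-free pair, and the fit over both pairs did not call it (limma, adjusted p = 0.0757). Of hepcidin's regulators in the list, 5 were higher in liver in both pairs, while the inhibitory Smad7 was higher in kidney and Smad1, Smad5, Smad6 and Neo1 were not called. The protease Tmprss6, which lowers hepcidin, was at 3.19 and 2.64 on the liver arrays and -3.31 and -3.26 on the kidney arrays, at least 43.7-fold higher, hemojuvelin (Hjv), a coreceptor, at least 25-fold, transferrin receptor 2 (Tfr2), a sensor of iron-loaded transferrin, at least 13.9-fold, Hfe at least 5.76-fold (0.52 on the log2 scale by its other probe) and the ligand Bmp2 at least 6.96-fold. None of the 4 genes Tmprss6, Hjv, Tfr2 and Hfe was well above background in kidney.

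The plasma carriers of iron and copper were also liver genes. Transferrin (Tf) was at 8.06 and 9.06 on the liver arrays and 2.49 and 2.53 on the kidney arrays, a difference of 5.57 ± 0.29 and 6.86 without noisy blocks, and was well above background in kidney too. The ferroxidase ceruloplasmin (Cp) was at 7.30 and 7.25 on the liver arrays and -0.86 and 0.54 on the kidney arrays, a difference of 8.15 ± 0.45 by the probe used and 1.80 to 3.75 by its other probes. The metalloreductase Steap4 differed by 3.26 ± 0.31, the exporter ferroportin (Slc40a1) by 1.74 ± 0.34 on the iron-sufficient pair and 0.82 on the iron-free pair (0.41 by its other probe on the former), and the importer Slc39a14 was at least 3.1-fold higher in liver. The importer Slc39a8 was 2.39-fold higher on the iron-sufficient pair and 1.38-fold on the iron-free pair, and was under 2-fold with commonly detected probes and with quantile normalisation.

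On the kidney side were the transferrin receptors of the brush border. Cubilin (Cubn) was at -3.81 and -5.59 on the liver arrays and 3.78 and 3.88 on the kidney arrays, at least 124-fold higher in kidney, and its partner Lrp2 85.1-fold. The metalloreductase Steap2 and its family member Steap1 were at least 38.6-fold and at least 5.12-fold higher, Steap1 with no value outside noisy blocks. The importer Slc11a2 was at 0.53 and 1.09 on the liver arrays and 2.50 and 3.19 on the kidney arrays, a difference of -1.97 ± 0.30. The ferroxidase hephaestin (Heph) was at least 3-fold higher. Targets of bone morphogenetic protein signalling, Id1 (at least 10-fold) and Smad7 (-1.15 ± 0.30), were higher in kidney as well. Steap1, Heph and Smad7 were under 2-fold with another background correction, as was Slc40a1 on the liver side.

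Ferritin and several regulators of iron were within 2-fold on the iron-sufficient pair. The ferritin chains Fth1, at 8.69 and 8.34 on the liver arrays and 8.32 and 8.20 on the kidney arrays, and Ftl1, at 9.0 and 8.63 on the liver arrays and 8.75 and 8.44 on the kidney arrays, differed by 0.37 ± 0.41 and 0.25 ± 0.29. Transferrin receptor 1 (Tfrc), which takes up iron in most cells, was at 1.82 and 0.97 in the iron-sufficient organs and 5.48 and 3.96 in the iron-free ones, differences of 0.85 ± 0.31 and 1.52. The liver was higher than the kidney within each diet, by less than the gap between diets in each organ. The iron regulatory protein Aco1 differed by -0.79 ± 0.12 and the ligase subunit Fbxl5 by -0.43 ± 0.35, and neither was called, nor were Smad1, Smad6, Pcbp1, Pcbp2, Neo1, Slc22a17, Slc25a28 and Epas1. Steap3, Smad5 and Ncoa4 were not called either, but theirs were bounds, which do not show a difference within 2-fold. Steap3 was at least 1.85-fold higher in liver, and the fit over both pairs called it for liver (limma, adjusted p = 0.0371).

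**Figure D4:**
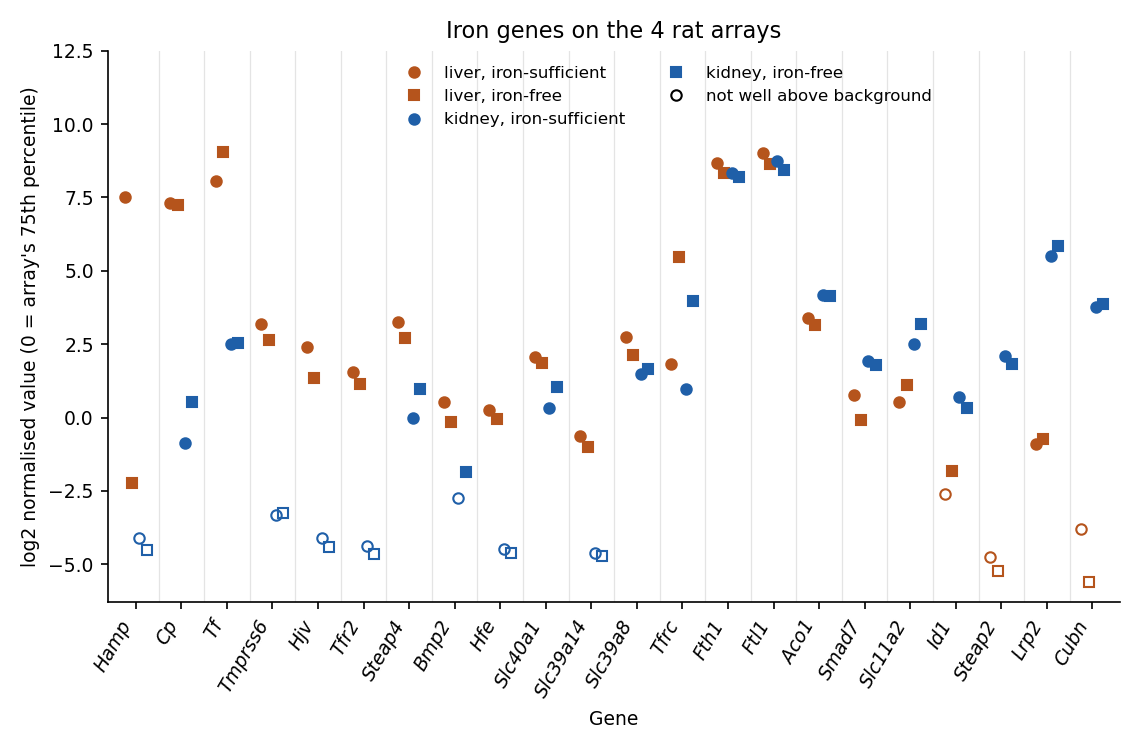
Log2 normalised values (vertical axis, 0 is the array's 75th percentile) of 22 iron genes on the 4 rat arrays, with liver in brown and kidney in blue, circles for the iron-sufficient and squares for the iron-free diet, and open symbols where the array was not well above background. Hamp is bright on the iron-sufficient liver array alone (7.51 against -2.24 on the iron-free one), Cp to Slc39a8 are higher in both livers, Cubn and Lrp2 are higher in both kidneys, and the ferritin symbols overlap near 8 to 9.

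Heme genes were higher in liver for 12 of 22 members and in kidney for 3, with a median of 1.39. The plasma scavengers among them are Hp and hemopexin (Hpx, at least 1352-fold). The synthesis enzymes Alas1, the first and limiting step outside red cells, at 7.28 and 6.43 on the liver arrays and 3.75 and 4.81 on the kidney arrays, Alad (1.59 ± 0.29), Fech (1.61 ± 0.55) and Cpox (at least 7.3-fold) were also higher in liver, as were the scavenger receptor Cd163 (at least 10.9-fold) and heme oxygenase 1 (Hmox1, at least 10.5-fold). Alas1 differed by 3.54 ± 0.34 on the iron-sufficient pair and by 1.62 on the iron-free pair. Heme oxygenase 2 (Hmox2, -1.20 ± 0.33), biliverdin reductase A (Blvra, -1.09 ± 0.31) and the porphyrin exporter Abcg2 (-3.21 ± 0.40) were higher in kidney, whereas biliverdin reductase B (Blvrb, 2.55 ± 0.41) was higher in liver. Blvra was under 2-fold with another background correction. The enzymes Urod, Uros and Ppox and the carriers Abcb6, Flvcr2 and Slc48a1 were not called.

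Genes of antioxidants, ascorbate and inositol gave 9 of 29 higher in liver and 12 in kidney. Gulo, the last enzyme of ascorbate synthesis in rodents, was at 5.02 and 4.71 on the liver arrays and -3.99 and -4.50 on the kidney arrays, at least 155-fold higher in liver, and urate oxidase (Uox) was at least 113-fold higher. Glutathione peroxidases divided: Gpx1 differed by 1.72 ± 0.14, while Gpx3, the plasma form that the kidney secretes, was at -2.19 and -2.70 on the liver arrays and 6.63 and 6.10 on the kidney arrays, a difference of -8.83 ± 0.47, and Gpx2 differed by -5.16 ± 0.50. With quantile normalisation Gpx1 was under 2-fold. Gpx3 was the largest measured kidney difference under the rule used. Miox, which breaks down inositol, was at 4.41 and 3.89 on the liver arrays and 8.55 and 8.04 on the kidney arrays, a difference of -4.14 ± 0.28, and the glutathione synthesis genes Gclc and Gss differed by -3.78 ± 0.28 and -2.94 ± 0.34.

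Hormone genes fell on both sides, 24 of 45 higher in liver and 17 in kidney. The growth factor Igf1 was at 8.43 and 8.33 on the liver arrays and 3.33 and 3.41 on the kidney arrays, a difference of 5.10 ± 0.34, and its serum partner Igfals was at least 29.8-fold higher in liver. The fetuin Fetub and the lipogenic factor Thrsp were at least 524-fold and at least 116-fold higher. The vasopressin receptors divided, Avpr1a at least 18.2-fold higher in liver and Avpr2 at least 8.27-fold higher in kidney. The calcium-sensing receptor Casr was at -4.94 and -5.40 on the liver arrays and 3.42 and 3.02 on the kidney arrays, at least 96.5-fold higher in kidney, Klotho (Kl), a coreceptor of the phosphate hormone FGF23, was at least 26.1-fold higher, and the parathyroid hormone receptor Pth1r differed by -3.54 ± 0.36. The peptidase Ace, of the angiotensin system, was at least 9.06-fold higher in kidney.

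Markers of the other cells these organs hold moved with the comparison, and their part in the results was not tested. Of 17 macrophage genes 13 were higher in liver and 2 in kidney, with a median of 1.86. Clec4f, of Kupffer cells, was at 5.47 and 5.62 on the liver arrays and -4.33 and -4.60 on the kidney arrays, at least 212-fold higher in liver, and Cd5l was at least 16.8-fold higher, whereas lysozyme (Lyz2, -3.0 ± 0.30) and the class II chain Cd74 (-1.49 ± 0.28) were higher in kidney. Of 13 endothelial genes 5 were higher in liver and 3 in kidney, the latter near the 20.4% over all genes. The sinusoidal genes Stab2 (at least 3.36-fold), Lyve1 (at least 9.05-fold, a bound of 3.18 that was 2.43 without noisy blocks) and Fcgr2b (at least 6.27-fold) were higher in liver. Plvap (-3.05 ± 0.30), Emcn (at least 8.88-fold) and Vwf (-1.33 ± 0.30, and -0.25 on the iron-free pair) were higher in kidney. The general endothelial gene Robo4 was a bound of 1.84 towards liver, 0.59 without noisy blocks and 0.65 on the iron-free pair. Pecam1 was not called (-0.82 ± 0.28, and -1.04 on the iron-free pair). Of 15 stromal genes 8 were higher in liver and 4 in kidney, with a median of 1.29 that was -0.23 on the iron-free pair. Among these, Lrat, of retinoid-storing stellate cells, and dermatopontin (Dpt) were at least 11.7-fold and at least 42.9-fold higher in liver, Col3a1 differed by 3.06 ± 0.29, and Cspg4 was at least 4.53-fold higher in kidney.

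Of 10 genes used as bile duct markers 8 were higher in kidney and 1 in liver. Keratin 7 (Krt7) was at -0.32 and 0.92 on the liver arrays and 6.23 and 6.03 on the kidney arrays, a difference of -6.55 ± 0.32, Epcam differed by -4.74 ± 0.51, and Spp1 was at least 66.5-fold higher in kidney. Kidney tubules also make these epithelial genes, so the list does not mark bile ducts in this comparison. Krt18, which hepatocytes make, differed by 4.41 ± 0.29. Of 7 leukocyte genes 3 were higher in liver (Gzma at least 6.72-fold, Prf1 at least 2.64-fold, Nkg7 2.01-fold) and none in kidney. Erythroid genes were measured for 10 of 18 members, 2 higher in liver and 2 in kidney, which is near the share over all genes. On the iron-free pair 7 of 12 were higher in liver and 1 in kidney, and the limma fit over both pairs called 9 of 12 for liver and 2 for kidney. Hemoglobin (Hba-a1) was at 9.46 and 9.42 on the liver arrays and 8.66 and 8.43 on the kidney arrays, a difference of 0.80 ± 0.29. Its other probe gave -0.22. The gene's copies share sequence, so these values belong to the alpha globins.

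Genes of organs next to liver and kidney were measured for 7 of 27 listed. The fat gene Adipoq was at 0.20 and -0.04 in kidney and below the detection rule in liver, at least 10.3-fold higher in kidney, while the lipid droplet gene Cidec (at least 12.2-fold), the steroid enzyme Cyp17a1 (at least 10.1-fold) and Th (2.07 ± 0.55) were higher in liver. Of 23 housekeeping genes 19 were not called, 3 were higher in liver and 1 in kidney, and their median of 0.38 became -0.28 after quantile normalisation. The 3 were B2m (1.61 ± 0.29), Gusb (1.54 ± 0.45, and 0.69 by its other probe) and Rpl13a, which had no value outside noisy blocks. Rpl13a was at 7.45 and 2.88 on the iron-sufficient arrays and at 7.06 and 7.24 on the iron-free ones. The kidney member was Ywhaz (-1.39 ± 0.30).

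Some of the largest kidney differences lay outside the lists. The channel-activating protease prostasin (Prss8) was at -1.27 and -1.34 on the liver arrays and 5.77 and 5.84 on the kidney arrays, a difference of -7.04 ± 0.20, and napsin A (Napsa), a protease of the proximal tubule, at 1.10 and 0.70 on the liver arrays and 7.19 and 6.86 on the kidney arrays, a difference of -6.09 ± 0.28. The cyclophilin Ppic (-6.54 ± 0.39) and the G protein subunit Gng13 (-6.17 ± 0.50) were of similar size. Collectrin (Cltrn), which brings amino acid carriers to the brush border, the trefoil peptide Tff3, the folate receptor Folr1 and Fam151a were detected in kidney alone, at least 854-fold, at least 700-fold, at least 680-fold and at least 1106-fold higher.

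The iron-free pair gave 1766 of 11110 genes (15.9%) at least 2-fold higher in liver and 2049 (18.4%) higher in kidney, and 445 (4.01%) and 544 (4.9%) at least 8-fold. Of the 486 genes at least 8-fold higher in liver on the iron-sufficient pair, 408 were so on the iron-free pair (84.0% of the former and 91.7% of the latter), and 476 were at least 2-fold higher. Of the 542 kidney genes 426 were (78.6% and 78.3%), and 527 were at least 2-fold higher. At 2-fold the shared genes were 1363 in liver (72.1% and 77.2%) and 1507 in kidney (75.1% and 73.5%). The pairs share no array, but they share the diet's other components, the slide and the probes. Over 7041 genes measured on all 4 arrays, the organ difference departed between pairs by a median of 0.30. Hamp, Phgdh, Scd and Alas1 departed by more, as their values above show. Of the genes called above, Aldh6a1 (-0.67), Cd74 (-0.996), Cox6b2 (0.85), Cox7a2 (-0.22), Eno3 (-0.69), Gpx1 (0.94), Nkg7 (0.79) and Ywhaz (-0.85) were also under 2-fold on the iron-free pair, and Heph had no fold there. Of those not called, Dpep1 (-1.87), Trpm6 (-1.71), Ptger3 (-1.98), Wt1 (-1.29), Hnf4a (-1.17), Gpd2 (-1.57), Gpi (-1.17) and Epas1 (-1.0) were higher in kidney there. In all, 16 genes were at least 2-fold apart in opposite directions, 5 towards liver and 11 towards kidney on the iron-sufficient pair.

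**Figure D5:**
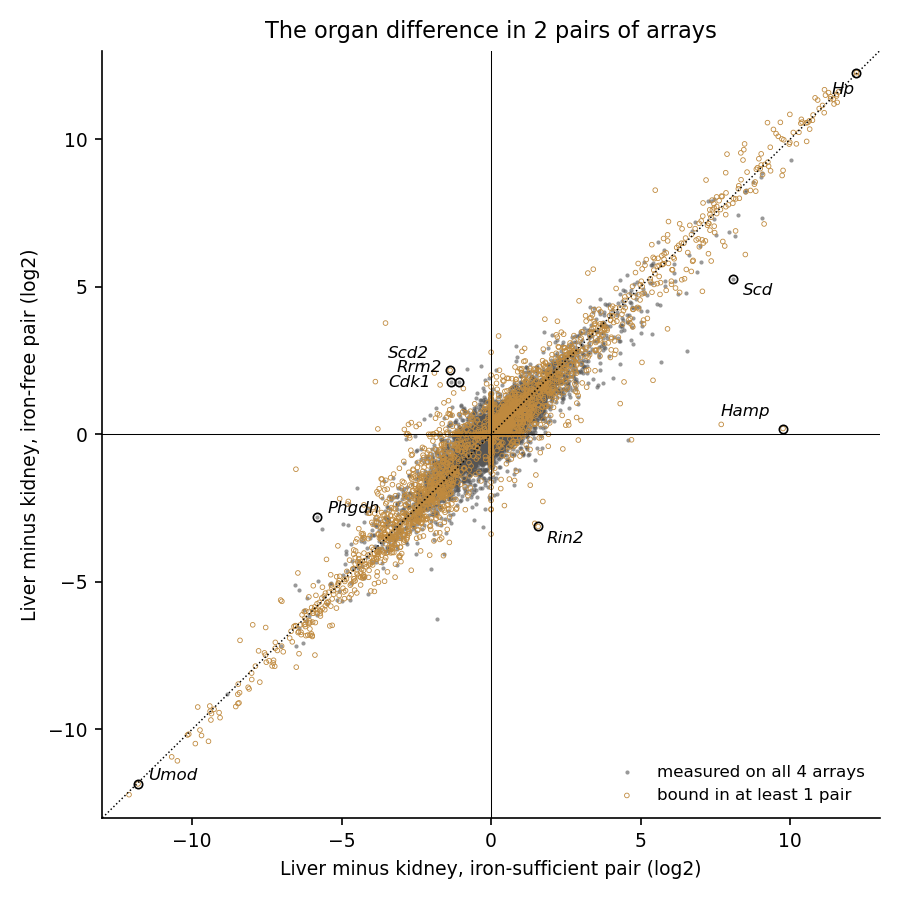
Liver minus kidney difference (log2) of each gene on the iron-sufficient pair (horizontal axis) and the iron-free pair (vertical axis), with grey points measured on all 4 arrays, open points a bound in at least 1 pair and the dotted line marking equal differences. Most genes lie along the line from Umod (-11.81 and -11.85) to Hp (12.22 and 12.26), while Hamp lies near 0 on the vertical axis and Rrm2, Cdk1, Scd2 and Rin2 lie in the quadrants of opposite sign.

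A fit over the 4 arrays with organ and diet as terms gave the only test of the organ difference. It has 1 residual degree of freedom, treats arrays below background at their measured value and rests on the spread borrowed across genes, and the pooled animals behind each array are not counted. Of 11317 genes tested, 2340 (20.7%) were higher in liver and 2142 (18.9%) higher in kidney (limma, Benjamini-Hochberg adjusted p under 0.05). Without 1 kidney array the counts were lower, 1257 and 1181 without the iron-sufficient kidney and 1239 and 1131 without the iron-free kidney, in fits without the diet term. The fit called 40 of 41 plasma protein genes for liver, and for kidney 23 of 24 proximal, 13 of 15 loop and distal and 20 of 21 collecting duct genes. Alb (limma, adjusted p = 9.99e-05), Umod (6.26e-05), Slc34a1 (6.26e-05) and Ldhb (0.000164) passed. Of 39 iron genes tested 13 passed for liver and 9 for kidney, among them Tmprss6 (limma, adjusted p = 0.000269), Tf (0.000471), Cubn (0.000807), Tfrc (0.0221) and Aco1 (0.0225), while Slc39a8 did not (0.0627) and Fth1 did not (0.265).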

How the data were processed

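RNA of 6 samples was labelled with 1 dye and hybridised to 6 rat arrays on 1 slide, and the 4 rat arrays were used here. Groups come from the sample titles. The authors used, per the file headers, Agilent Feature Extraction 10.7.3.1 (array design 028279, whose header names build rn4). Each probe has an intensity and a log2 value in the authors' deposited series table. Checked against the scanner files, that intensity is the geometric mean of a probe's spots without those flagged as outliers for 99.98% to 100.0% of probes (relative tolerance 0.0001). The 75th percentile of each array was subtracted from its log2 intensities, and the columns' medians were -3.43 and -3.29 for liver and -3.31 and -3.26 for kidney, iron-sufficient first. Columns were given to samples by the scan names in their header, which the sample descriptions repeat. The table's 4 columns of the cell line were not used.

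Probes were joined to genes by the table's gene ID (24272 probes with one, 6095 without), and 19142 of 19958 genes took their current symbol from the RefSeq table of assembly GRCr8. The brightest probe over the 4 rat arrays stands for a gene. Other probes of a gene can give smaller or larger differences, some of them bounds, and their values are given for some genes only. A probe is well above background only if all its non-outlier spots are. Spot errors are pooled in 20 bins of signal. A block of 16 by 16 spots is noisy if its spots depart from their probe's other spot by a median over 0.5. Calls are at least 2-fold (log2 1), without a p-value. limma 3.58.1 under R 4.3.3 (lmFit with diet and organ, eBayes with trend) tested both pairs together. Other values were computed in Python 3.11.15 (numpy 2.4.6, pandas 2.3.3), and the steps were tested on simulated data. Genes named in the text are, per direction, the 12 largest measured differences and 12 largest bounds that were at least 2-fold the same way on the iron-free pair and without noisy blocks, all measured iron and glycolysis genes, the 4 largest of each other list per direction, and the 6 brightest of 16 genes at least 2-fold in opposite directions on the pairs. Some genes that the rule names are not reported here. Other list members were added as examples after their values were seen. The 31 gene lists, the members and the rules were chosen with earlier results of these data known. The number of arrays limits the precision. The normexp alternative used the scanner's median spot and background intensities, since the files hold no mean spot signal.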

Additional observations from a re-analysis of the deposited data

Results flagged for a closer look

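The organ difference took opposite signs on the iron-sufficient and the iron-free pair for 6 genes that were bright enough to be named, and with 1 array per group the difference between the pairs was not tested. Rin2, a Rab5 exchange factor, was at 1.57 (a bound) on the iron-sufficient pair and -3.12 on the iron-free pair. Pfkp, the platelet phosphofructokinase, was at 1.73 (a bound) and -2.28, and Arhgef3, a guanine nucleotide exchange factor, at 1.31 (a bound) and -1.73. These 3 have spots in noisy blocks of the iron-sufficient arrays, and without those spots their iron-sufficient values were -2.64, -1.30 and -1.36, on the kidney side in both pairs.

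The other 3 were higher in kidney on the iron-sufficient pair and higher in liver on the iron-free pair. Rrm2, a subunit of ribonucleotide reductase, the iron enzyme that makes deoxynucleotides, was at -1.08 and 1.76. Cdk1, the kinase that drives entry into mitosis, was at -1.34 and 1.76. Scd2, a stearoyl-CoA desaturase, was at -1.37 (a bound) and 2.17. Their values on the arrays in the order iron-sufficient liver, iron-free liver, iron-sufficient kidney and iron-free kidney were -0.17, 2.99, 0.91 and 1.23 for Rrm2, -1.37, 1.93, -0.03 and 0.17 for Cdk1, and -1.96, 2.26, -0.59 and 0.10 for Scd2. In each of the 3 the livers differed more between diets than the kidneys did.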

How the results depend on the processing

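The 2-fold counts of the iron-sufficient pair stayed within 1.5 times the main counts (1890 higher in liver, 2006 in kidney) under the 3 other scalings (1388 and 2492 with commonly detected probes, 1670 and 2150 with the median, 1678 and 2130 with quantiles), with the scanner signal, without noisy blocks (1808 and 1856), with normexp background (1543 and 1487), with a looser rule on detected spots (2278 and 2419) and with the median probe of a gene. They were 1176 and 970 when both arrays had to be well above background, which leaves fewer genes, and 838 and 1003 at 4-fold. The scalings moved the differences by -0.31, -0.11 and -0.16. In the limma fit the kidney count was 1387 with genes well above background on all 4 arrays. Leaving out 1 array in turn gave 1239 to 2611 genes higher in liver and 1131 to 2304 in kidney, lowest without a kidney array. The fit has diet as a term, and without it the counts were 2344 and 2142. Of 237 named genes called on the iron-sufficient pair, 19 were under 2-fold with normexp, 9 with quantiles, 7 with commonly detected probes and 3 each with the median and without noisy blocks. Among the 19 with normexp were Aldh6a1, Blvra, Cyp2s1, G6pc3 and Nkg7. Nkg7 was also under 2-fold with commonly detected probes and with the median. The sign turned for Arhgef3 (-1.36), Pfkp (-1.30) and Rin2 (-2.64) without noisy blocks and for Cox7a2 (-0.12) with normexp, and the cause was not tested. Of 31 list medians 18 were above 0, and 16 to 18 were in the alternatives run. Signal over background limits the bounds: the lowest detected value was -3.17 and -3.49 on the liver and -2.26 and -2.44 on the kidney arrays, so a low gene of 1 organ cannot reach 8-fold.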
